A study of Mus musculus with 6 samples.

Results

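Interferon-response genes were compared between Scf-GFP+ cells and whole bone marrow cells of the mouse. The members were 44 genes listed by symbol, comprising immunity-related GTPases (IRG proteins), guanylate-binding proteins (GBP proteins), interferon receptors, interferon-regulated transcription factors, RNA sensors and antiviral effectors. A gene was taken from a row of the deposited table whose annotation gave its symbol alone, and from the row with the highest mean over the 6 arrays where there were several. This left 36 of the 44 genes, among 19938 genes in all. Igtp, Irgm2, Tgtp1, Ifi47, Gbp2, Gbp6 and Isg15 had only rows that list several genes, and Ifi44 had no row with its symbol and was not analysed here.

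The 3 Scf-GFP+ arrays carried RNA of bone marrow cells that express green fluorescent protein from the gene of stem cell factor, Kitl, in young adult mice heterozygous for the Scf-GFP knock-in. The 3 whole bone marrow arrays carried RNA of sorted whole marrow cells of young adult wild-type mice, and both kinds of mice had a C57BL/6 background. Each array had RNA of 5000 sorted cells, amplified before hybridisation to Affymetrix Mouse Gene 1.0 ST arrays, and the labels give double sorting for the Scf-GFP+ cells alone. Population, genotype and sorting therefore changed together and cannot be told apart, and the Scf-GFP+ cells have 1 altered copy of Kitl. The labels number the replicates and do not say that they came from separate animals, so the p-values cover only the spread among these samples, which may be partly technical.

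Interferons are secreted proteins that warn cells of infection. Type I interferons act through the receptor chains Ifnar1 and Ifnar2, and signals through interferon-stimulated response elements (ISRE) in promoters then switch on antiviral genes such as those of the Mx, Oas and Ifit families. Interferon gamma acts through Ifngr1 and Ifngr2, and signals through gamma-activated sites (GAS) then induce Irf1 and many GTPases that attack the vacuoles of intracellular pathogens. The programmes overlap, and many members respond to both kinds of interferon.

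Members were called when limma's adjusted p over all 19938 genes was below 0.05 and the difference was at least 2-fold. Of the 36 members, 7 were called higher in Scf-GFP+ cells (19.4%), where 9.01% of all genes were, and 6 were called lower (16.7%), where 7.89% of all genes were. Over both directions 16.9% of all genes were called. All 5 measured GTPase members had a positive difference, 3 of them were called higher and none lower, with a median log2 difference of 1.17. Of the 20 measured sensors and antiviral effectors, 3 were called higher and 5 lower, with 11 positive and 9 negative differences and a median of 0.45. At an unadjusted p below 0.05, limma put 3 GTPase members higher and 0 lower, and 8 sensors and antiviral effectors higher and 7 lower. At that threshold 18.1% of all genes were higher and 19.6% lower. The median over all genes was -0.08. The difference between these lists was not tested. The members and lists were chosen with earlier results of these data known, so the counts only describe them. All 3 Scf-GFP+ arrays lay above all 3 whole marrow arrays for 14 members, and below them for 9, where 19.0% and 26.4% of all genes did so. The groups did not overlap for 45.4% of all genes. Whole marrow is a mixture, so fewer cells of a type and less RNA per cell cannot be told apart in any of these values.

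**Figure D1:**
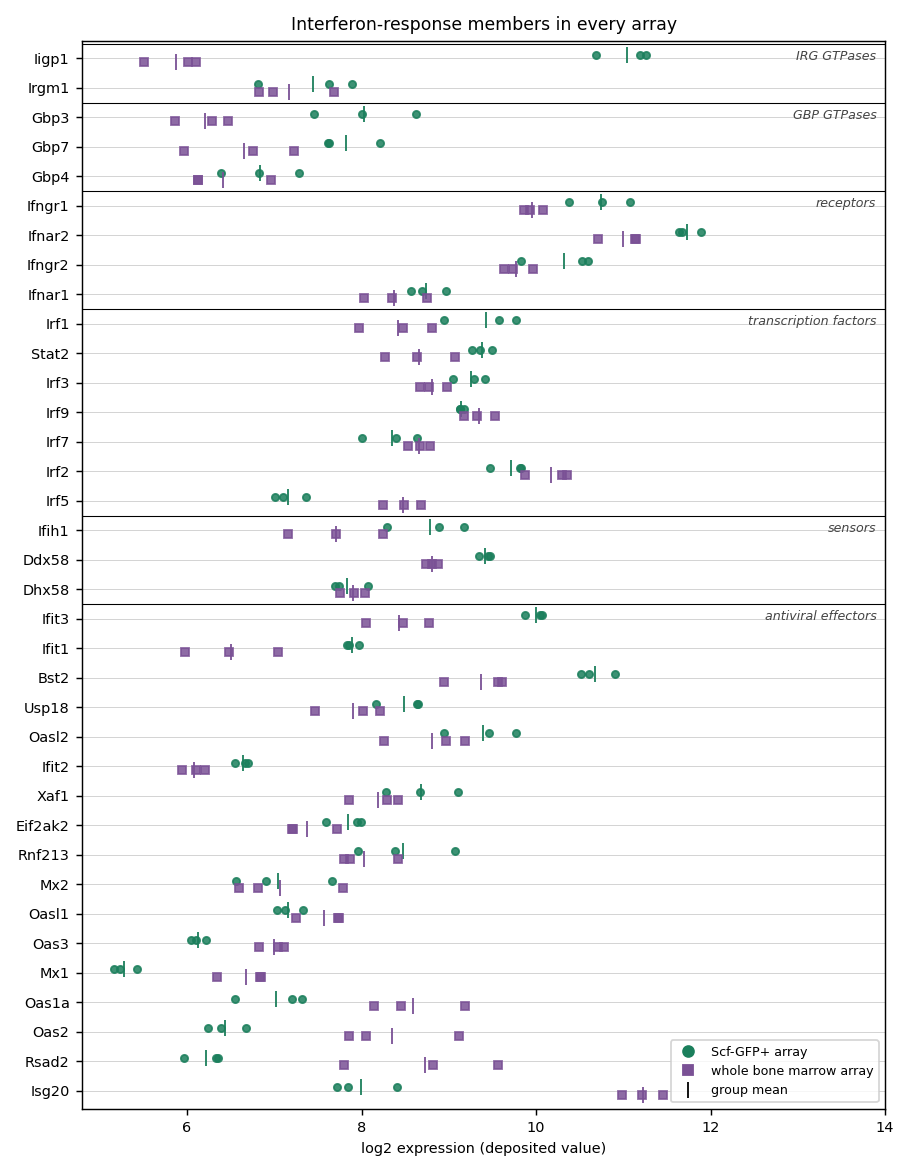
Deposited log2 expression (x axis) of the 36 measured members (rows, grouped by role) in each of the 3 Scf-GFP+ arrays (green circles) and the 3 whole bone marrow arrays (purple squares), with vertical ticks at group means. Iigp1 lies between 10.69 and 11.26 in Scf-GFP+ arrays and between 5.51 and 6.10 in whole marrow arrays, and Isg20 shows the widest gap in the other direction.

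The arrays also carried other signals, which are given here beside the members' values. The 9 stromal markers were all higher in Scf-GFP+ cells by the call rule, and their mean log2 level per array was 11.33 to 11.41 in Scf-GFP+ arrays, against 5.71 to 5.84 in whole marrow arrays. Kitl, the gene whose reporter defined the sorted cells, is among these markers. Of 13 neutrophil markers, 11 were called lower in Scf-GFP+ cells, but their mean level was 9.05 in Scf-GFP+ replicate 1 and 5.82 and 5.91 in replicates 2 and 3, against 11.80 to 11.91 in whole marrow. Without Scf-GFP+ replicate 1, 5 members were called higher and 6 lower. Of 7 endothelial markers, 2 were called higher and 1 lower. Their mean level was 7.03, 6.89 and 6.39 in Scf-GFP+ replicates 1 to 3, against 6.27 to 6.42 in whole marrow. Of 8 measured monocyte and macrophage markers, 5 were called lower and 1 higher, with means of 6.20 to 7.01 in Scf-GFP+ arrays, against 8.27 to 8.40 in whole marrow. Of 4 measured markers of plasmacytoid dendritic cells, which are known as strong interferon producers, 3 were called lower, with means of 5.40 to 5.81 in Scf-GFP+ arrays, against 6.99 to 7.92 in whole marrow. RMA values have no detection call, so no marker could be listed as absent, and the part of these cells in the members' differences was not tested. The female transcript Xist was high in Scf-GFP+ replicates 1 and 2 alone, at 11.50 and 11.81, and at most 5.10 in the remaining 4 arrays. The Y-linked gene Eif2s3y measured 4.41, 3.72 and 8.23 in Scf-GFP+ replicates 1 to 3, against 7.33 to 7.97 in whole marrow, so the Scf-GFP+ arrays differed among themselves in the sex of the mice. When this split entered the model the group difference rested on Scf-GFP+ replicate 3, and 2 members (Iigp1 and Ifit3) were called higher and 5 lower. Gbp3, Gbp7, Irf1, Ifit1, Bst2 and Oas2 then lost their calls.

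Promoters of called members are shown first, since the programmes are described by such sites, although many members respond to both kinds of interferon. Of the 44 members, 36 matched a RefSeq promoter entry of build GRCm38.p6, with 42 windows of the 250 bases before a start site. The called members Iigp1, Mx1 and Oas2 had no window and were not searched. Both strands were searched for the letters TTCNNNGAA (GAS, which reads the same on both strands) and for GAAA followed by any 2 bases and GAAA again (ISRE), and the letters of both motifs overlapped in 1 member window. The GAS letters occurred in 12 of 42 member windows (28.6%) and in 7.02% of the 32851 windows of all genes. The ISRE letters occurred in 16 member windows (38.1%) and in 2.98% of all windows. Among the GTPases with a window, the ISRE letters occurred in all 3 GBP genes (Gbp2, Gbp3 and Gbp7) and in 4 of 5 IRG genes (Igtp, Irgm1, Irgm2 and Tgtp1), and the GAS letters in Gbp7, Igtp, Irgm2 and Tgtp1. Of 15 antiviral effectors with a window, 7 held ISRE letters and 5 GAS letters, and the 2 sensors held neither. Of 7 transcription factors 2 held each, and of 4 receptors 0 held ISRE letters and 1 GAS letters. The difference between these roles was not tested. Among members called higher that had a window, 5 of 6 held ISRE letters and 3 of 6 GAS letters. Among those called lower, 2 of 4 held each, and among those not called 4 of 19 held each. A letter match is a description and not a binding site. The 4 called members with the largest differences that held a match are printed 5′ to 3′ up to the base before the start site, with the matched letters in capitals. The match in Isg20 is a GAS, in 1 of 3 windows of that gene. Those in the others are ISRE matches on the opposite strand, with a pair of overlapping matches in 1 of 2 windows of Gbp3 and a pair of separate ones in Ifit3.
Gbp3 (chr3:142559794-142560043, plus strand): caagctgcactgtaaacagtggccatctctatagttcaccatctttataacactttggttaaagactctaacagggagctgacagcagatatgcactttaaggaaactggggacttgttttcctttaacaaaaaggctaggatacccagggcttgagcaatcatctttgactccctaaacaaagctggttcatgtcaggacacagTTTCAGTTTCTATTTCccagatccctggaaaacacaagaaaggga
Ifit3 (chr19:34583279-34583528, plus strand): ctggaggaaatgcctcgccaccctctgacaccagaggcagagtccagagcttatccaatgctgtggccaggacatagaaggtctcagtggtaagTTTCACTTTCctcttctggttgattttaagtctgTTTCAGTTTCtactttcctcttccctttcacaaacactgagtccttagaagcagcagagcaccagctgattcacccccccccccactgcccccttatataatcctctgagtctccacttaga
Rsad2 (chr12:26456453-26456702, minus strand): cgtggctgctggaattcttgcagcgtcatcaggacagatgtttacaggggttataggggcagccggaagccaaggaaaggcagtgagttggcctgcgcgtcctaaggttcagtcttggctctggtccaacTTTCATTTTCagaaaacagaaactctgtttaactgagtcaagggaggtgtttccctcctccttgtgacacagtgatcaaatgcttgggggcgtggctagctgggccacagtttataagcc
Isg20 (chr7:78913174-78913423, plus strand): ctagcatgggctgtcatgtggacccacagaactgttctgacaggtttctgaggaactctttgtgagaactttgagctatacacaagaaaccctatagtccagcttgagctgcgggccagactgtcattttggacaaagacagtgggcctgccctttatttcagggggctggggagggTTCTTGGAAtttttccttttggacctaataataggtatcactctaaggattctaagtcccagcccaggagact

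The IRG GTPases are interferon-inducible enzymes that assemble on the vacuoles of parasites and bacteria. Iigp1, also called Irga6, had the largest difference of all members. It measured 11.19, 11.26 and 10.69 in the Scf-GFP+ arrays, against 5.51, 6.10 and 6.01 in the whole marrow arrays, on the log2 scale. The groups did not overlap, and Iigp1 was 36.1-fold higher in Scf-GFP+ cells (log2 difference 5.17 ± 0.22 SE over 3 arrays in each group, limma adjusted p = 1.26e-05). It was still called without each array in turn, with differences from 4.99 to 5.35. Irgm1, a regulatory IRG protein that restrains the others, did not follow it. Irgm1 measured 7.89, 7.63 and 6.81 in Scf-GFP+ cells, against 6.83, 7.68 and 6.98 in whole marrow, so the groups overlapped (0.28 ± 0.34, limma adjusted p = 0.588).

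The GBP proteins are larger interferon-inducible GTPases that coat bacteria and pathogen vacuoles. Gbp3, with the overlapping ISRE letters in 1 of its 2 promoter windows, measured 8.62, 8.01 and 7.45 in Scf-GFP+ cells, against 6.29, 6.47 and 5.86 in whole marrow. Every Scf-GFP+ array lay above every whole marrow array, with a 3.53-fold difference (1.82 ± 0.31 SE, limma adjusted p = 0.00573). Gbp7 measured 7.62, 8.21 and 7.63 in Scf-GFP+ cells, against 5.96, 7.23 and 6.76 in whole marrow (1.17 ± 0.34, limma adjusted p = 0.0438). Its groups were separate too. The call held when whole marrow replicate 2 was left out (1.46), but Gbp7 no longer passed without Scf-GFP+ replicate 1, 2 or 3 (differences of 1.27, 0.98 and 1.26) or when whole marrow replicate 1 or 3 was left out (0.83 and 1.22), nor after quantile normalization again (1.12) or subtraction of array medians (1.13). Gbp4 measured 7.28, 6.83 and 6.39 in Scf-GFP+ cells, against 6.96, 6.13 and 6.13 in whole marrow, and was not called (0.43 ± 0.31, limma adjusted p = 0.359).

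Most other GTPase members share rows with close relatives, and such a row belongs to no single gene. The table held 6 rows that list several genes with a GTPase member among them, and when every row of the table was tested all 6 were called higher in Scf-GFP+ cells, where 7.29% of all 28940 rows were (6.72% were called lower). All 6 were also called without each array in turn, a check added after seeing the data. The other alternatives, among them the split by sex-linked transcripts, were not run on these rows. A pair of rows listed for Tgtp1 and Tgtp2 together differed by 2.16 ± 0.25 and 2.36 ± 0.20 SE. The second of these measured 10.25, 10.55 and 10.22 in Scf-GFP+ cells, against 8.22, 8.14 and 7.58 in whole marrow. The row listed for Gbp2 and Gbp2b measured 8.39, 8.74 and 7.86 in Scf-GFP+ cells, against 5.91, 5.78 and 6.35 in whole marrow (2.32 ± 0.26). No Scf-GFP+ array of any of these rows fell within the range of the whole marrow arrays. All Scf-GFP+ arrays lay above all whole marrow arrays for 19.0% of the 19938 genes, and this share was not computed over all 28940 rows. The row listed for Igtp and Irgm2 measured 10.41, 10.64 and 10.04 in Scf-GFP+ cells, against 9.36, 9.01 and 8.80 in whole marrow (1.31 ± 0.21), and that listed for Ifi47 and the olfactory receptor Olfr56 differed by 1.31 ± 0.16. A row listed for 6 GBP genes (Gbp4, Gbp6, Gbp8, Gbp9, Gbp10 and Gbp11) differed by 2.08 ± 0.30, whereas the single rows of Gbp4, Gbp8, Gbp9 and Gbp11 differed by 0.43, -0.15, -1.15 and 0.56 and were not called. Among these Gbp11 passed on p alone, with all Scf-GFP+ arrays above all whole marrow arrays (limma adjusted p = 0.0140). Over the 6 rows limma's adjusted p ranged from 0.000331 to 0.00536. Both rows listed for several genes with another member among them were not called. The row listed for Isg15 and Gm9706 measured 9.13, 9.31 and 8.57 in Scf-GFP+ cells, against 9.32, 10.53 and 9.58 in whole marrow (-0.81 ± 0.35, limma adjusted p = 0.156). The row listed for Oas1a and Oas1g measured 7.80, 7.63 and 7.67 in Scf-GFP+ cells, against 7.93, 8.50 and 8.91 in whole marrow (-0.75 ± 0.24, limma adjusted p = 0.0739).

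**Figure D2:**
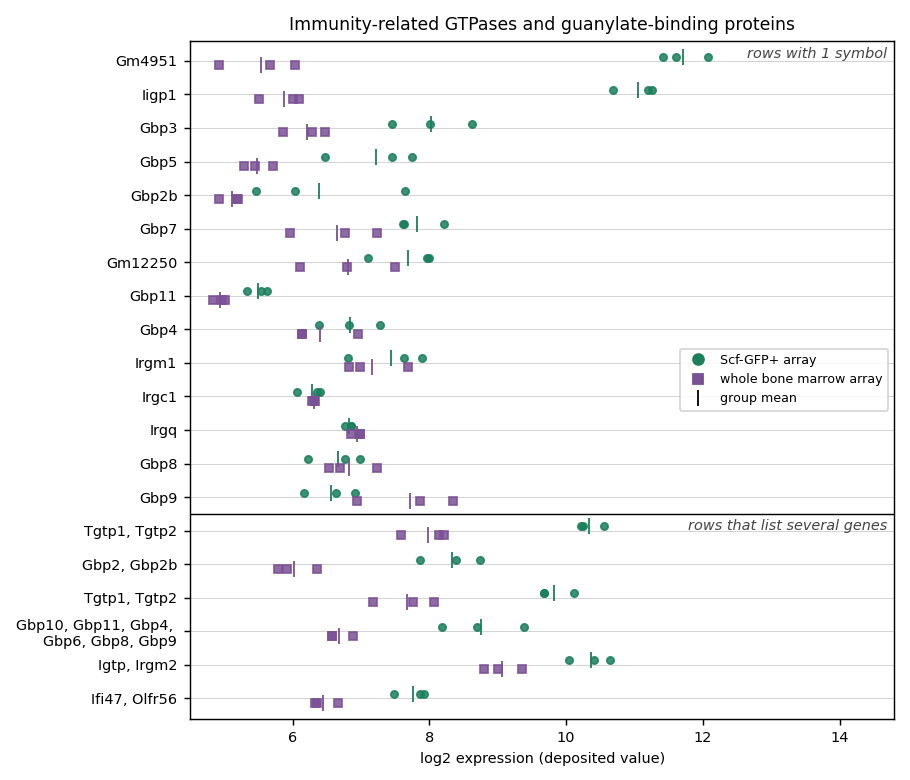
Deposited log2 expression (x axis) of GTPase genes with a row of their own (upper rows, members and further GTPases) and of the 6 rows that list several genes (lower rows), in the 3 Scf-GFP+ arrays (green circles) and the 3 whole bone marrow arrays (purple squares), with ticks at group means. Gm4951 and Iigp1 stand apart from the other single rows. In all 6 shared rows every Scf-GFP+ array lies above every whole marrow array, which held for 19.0% of the 19938 genes.

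Further GTPases that are not members were read from a list of 16 genes, of which 9 had a row. Of these, 2 were called higher (22.2%, against 9.01% of all genes) and none lower. At an unadjusted p below 0.05 limma gave 4 higher and 1 lower, where 18.1% and 19.6% of all genes were. Gm4951, an IRG gene that neighbours Iigp1 on chromosome 18, measured 12.08, 11.61 and 11.42 in Scf-GFP+ cells, against 5.67, 6.03 and 4.92 in whole marrow, a 71.6-fold difference (6.16 ± 0.31 SE, limma adjusted p = 2.38e-05). Gm4951 and Iigp1 thus both lay above the first quartile of values in Scf-GFP+ cells by a wide margin. In whole marrow, where the quartile was 5.25 to 5.31, Iigp1 lay above it in every array (5.51 to 6.10) and Gm4951 on both sides of it. Gbp5, which lies beside Gbp7 and Gbp3 on chromosome 3, differed by 1.74 ± 0.32 (limma adjusted p = 0.00809). All 4 measured genes of that chromosome 3 run (Gbp5, Gbp7, Gbp3 and Gbp2b) had a positive difference and 3 were called higher, while of the 3 measured genes of the chromosome 5 run (Gbp8, Gbp9 and Gbp4) 1 was positive and none was called (limma adjusted p 0.0659 or more).

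The receptors differed little. All 4 receptor members had a positive difference, none was called at 2-fold, and limma put 3 higher at an unadjusted p below 0.05 (18.1% of all genes were). Ifnar2, a chain of the type I receptor, measured 11.67, 11.89 and 11.64 in Scf-GFP+ cells, against 10.71, 11.13 and 11.15 in whole marrow (0.73 ± 0.16 SE, limma adjusted p = 0.0143). Ifngr1, the ligand-binding chain for interferon gamma, measured 10.38, 11.08 and 10.76 in Scf-GFP+ cells, against 9.93, 9.86 and 10.08 in whole marrow (0.79 ± 0.19, limma adjusted p = 0.0230). Both were separate between the groups and both stayed under 2-fold. Ifngr2 and Ifnar1 differed by 0.55 ± 0.22 and 0.37 ± 0.21, with overlap (limma adjusted p = 0.125 and 0.253). On chromosome 16, Ifnar2, Ifnar1 and Ifngr2 lie together with Il10rb, a shared chain of the receptors for interleukin 10 and interferon lambda, which was called higher (1.38 ± 0.15, limma adjusted p = 0.000859).

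Among 7 transcription factors 1 was called in each direction, where 9.01% of all genes were called higher and 7.89% lower. Irf1, an activator induced by interferon gamma that drives GBP genes, measured 9.57, 8.94 and 9.77 in Scf-GFP+ cells, against 7.97, 8.81 and 8.47 in whole marrow. The lowest Scf-GFP+ array stood just above the highest whole marrow array, and the difference was 2.01-fold (1.01 ± 0.29 SE, limma adjusted p = 0.0421). Irf1 lost its call without Scf-GFP+ replicate 1 or 3 (0.94 and 0.84) and when whole marrow replicate 1 or 3 was left out (0.79 and 1.04). The second row of Irf1 measured 8.70, 7.84 and 8.66 in Scf-GFP+ cells, against 7.84, 7.81 and 7.03 in whole marrow, and was not called (0.84 ± 0.32, limma adjusted p = 0.104 over all rows with 1 symbol). Quantile normalization again, and subtraction of array medians, also took it under 2-fold, at 0.98 and 0.97. Irf5, which myeloid and B cells use downstream of Toll-like receptors, measured 7.01, 7.10 and 7.36 in Scf-GFP+ cells, against 8.49, 8.25 and 8.68 in whole marrow. The groups were far apart relative to their spread, with Irf5 2.49-fold lower in Scf-GFP+ cells (-1.31 ± 0.16, limma adjusted p = 0.00111). Stat2, a transcription factor of type I and lambda interferon signalling, differed by 0.72 ± 0.21 (limma adjusted p = 0.0448) and stayed under 2-fold. Irf3, the latent factor that induces interferon beta, differed by 0.44, and Irf2, Irf7 and Irf9 differed by -0.46, -0.32 and -0.19, with limma adjusted p values from 0.0618 to 0.296.

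The cytosolic RNA sensors did not pass at 2-fold, and limma put 2 of 3 higher at an unadjusted p below 0.05 (18.1% of all genes were). Ddx58, which encodes the sensor RIG-I, measured 9.47, 9.45 and 9.34 in Scf-GFP+ cells, against 8.81, 8.88 and 8.74 in whole marrow. Its replicates were among the tightest of the members, and the difference of 0.61 ± 0.10 SE passed on p alone (limma adjusted p = 0.00483). Ifih1, a sensor of long double-stranded RNA, measured 9.17, 8.89 and 8.29 in Scf-GFP+ cells, against 7.71, 8.24 and 7.16 in whole marrow (1.08 ± 0.33, limma adjusted p = 0.0517). It passed without Scf-GFP+ replicate 3 (1.33) or when whole marrow replicate 2 was left out (1.35). Dhx58, a regulator of both, differed by -0.07 ± 0.14 (limma adjusted p = 0.768).

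Of 17 measured antiviral effectors 3 were called higher and 5 lower (17.6% and 29.4%, against 9.01% and 7.89% of all genes). All 3 Ifit genes, which form a run on chromosome 19, had every Scf-GFP+ array above every whole marrow array. Of all genes 19.0% did so. Ifit3, whose promoter holds a pair of ISRE matches, measured 10.07, 9.87 and 10.05 in Scf-GFP+ cells, against 8.05, 8.47 and 8.77 in whole marrow, a 2.96-fold difference (1.57 ± 0.19 SE, limma adjusted p = 0.00131). Ifit1 measured 7.97, 7.83 and 7.86 in Scf-GFP+ cells, against 5.98, 7.04 and 6.48 in whole marrow (1.39 ± 0.26, limma adjusted p = 0.00813). The Scf-GFP+ arrays agreed closely for both genes while the whole marrow arrays were spread. Ifit2 differed by 0.55 ± 0.11 (limma adjusted p = 0.0124), under 2-fold. Bst2, tetherin, which holds budding viruses at the cell surface, measured 10.90, 10.61 and 10.51 in Scf-GFP+ cells, against 9.56, 8.95 and 9.61 in whole marrow. It was 2.47-fold higher (1.30 ± 0.21, limma adjusted p = 0.00426), with no overlap.

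The oligoadenylate synthetases, which make the activator of the RNA-degrading enzyme RNase L, had 5 measured members counting the related Oasl genes. Of these, 2 were called lower, none was called higher and 4 had a negative difference, where 7.89% of all genes were called lower and 9.01% higher. Oas2 measured 6.67, 6.24 and 6.39 in Scf-GFP+ cells, against 7.86, 9.12 and 8.05 in whole marrow, and was 3.77-fold lower in Scf-GFP+ cells (-1.91 ± 0.33 SE, limma adjusted p = 0.00617). Oas1a measured 7.32, 7.20 and 6.55 in Scf-GFP+ cells, against 8.14, 8.45 and 9.18 in whole marrow (-1.56 ± 0.32, limma adjusted p = 0.0117), while the row it shares with Oas1g was not called. Neither gene had overlapping groups. Oas3, in the same run on chromosome 5, measured 6.22, 6.05 and 6.10 in Scf-GFP+ cells, against 7.11, 7.04 and 6.83 in whole marrow, and fell short of 2-fold (-0.87 ± 0.12, limma adjusted p = 0.00215). The related genes Oasl1 and Oasl2 differed by -0.41 ± 0.17 and 0.59 ± 0.30 and did not pass (limma adjusted p = 0.126 and 0.208).

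The remaining effectors called were all lower in Scf-GFP+ cells. Isg20, an exonuclease that degrades viral RNA and whose promoter holds the GAS letters shown above, measured 7.85, 7.72 and 8.41 in Scf-GFP+ cells, against 11.21, 11.46 and 10.99 in whole marrow. At 9.34-fold lower in Scf-GFP+ cells it had the largest negative difference of the members (-3.22 ± 0.22 SE, limma adjusted p = 8.17e-05). Rsad2, viperin, which makes a chain-terminating nucleotide, measured 6.35, 6.33 and 5.97 in Scf-GFP+ cells, against 7.80, 9.56 and 8.82 in whole marrow, and was 5.70-fold lower (-2.51 ± 0.42, limma adjusted p = 0.00512). Mx1, of the dynamin-like GTPases, measured 5.23, 5.16 and 5.43 in Scf-GFP+ cells, against 6.85, 6.84 and 6.34 in whole marrow (-1.41 ± 0.17, limma adjusted p = 0.00124). These 3 genes had no overlap, and the Scf-GFP+ values of Mx1 lay near the first quartile of their arrays (5.19 to 5.24). Its relative Mx2 measured 7.66, 6.91 and 6.56 in Scf-GFP+ cells, against 7.79, 6.59 and 6.81 in whole marrow, and did not pass (-0.02 ± 0.39, limma adjusted p = 0.972). Usp18, which removes Isg15 from proteins and dampens the type I receptor, Eif2ak2, the double-stranded RNA-dependent kinase that halts translation, Xaf1, a pro-apoptotic factor, and Rnf213, a large ubiquitin ligase, had differences from 0.44 to 0.59. None of these 4 genes passed (limma adjusted p from 0.114 to 0.342).

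**Figure D3:**
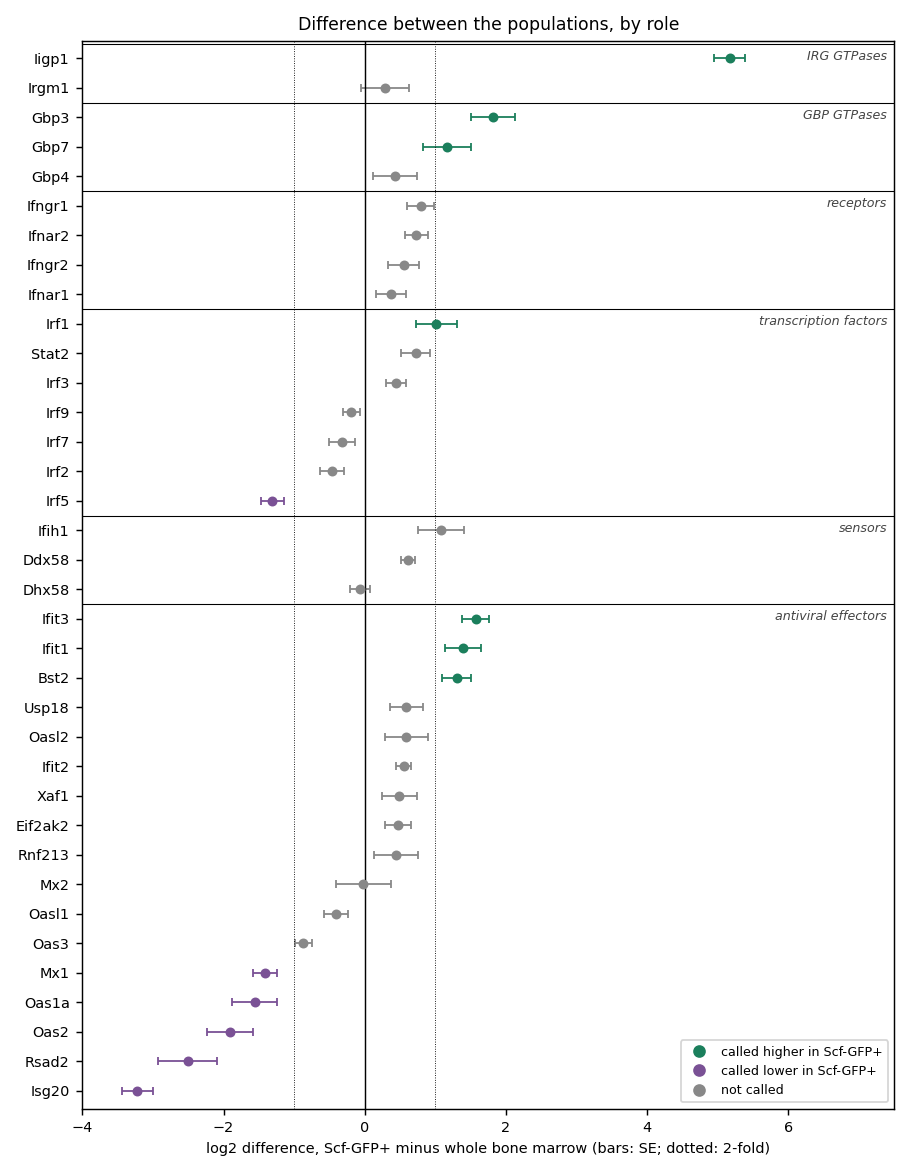
Log2 difference (x axis, Scf-GFP+ minus whole bone marrow, bars show limma's SE) of the 36 members (rows, by role), with dotted lines at 2-fold. The called GTPases are to the right, while the called antiviral effectors lie on both sides, from -3.22 for Isg20 to 1.57 for Ifit3.

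The standard deviation (SD) of a member over 3 arrays had a median of 0.22 within the Scf-GFP+ group and 0.32 within the whole marrow group, against 0.17 and 0.16 over all genes. In whole marrow, replicate 2 held the highest value of 20 of 36 members, against 29.6% of all genes, and of 13 of the 20 sensors and antiviral effectors, among them Rsad2 and Oas2. In Scf-GFP+ cells, replicate 1 held the highest value of 14 of those 20 genes, against 33.2% of all genes, and replicate 3 the lowest value of 4 of the 5 GTPase members. The median deviation of the GTPase members from their group mean was 0.45 in Scf-GFP+ replicate 1, 0.18 in replicate 2 and -0.45 in replicate 3. Replicate 1 is the array with the higher neutrophil markers and replicate 3 the one with low Xist and the lowest mean of endothelial markers. The part of these in the members' spread was not tested.

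**Figure D4:**
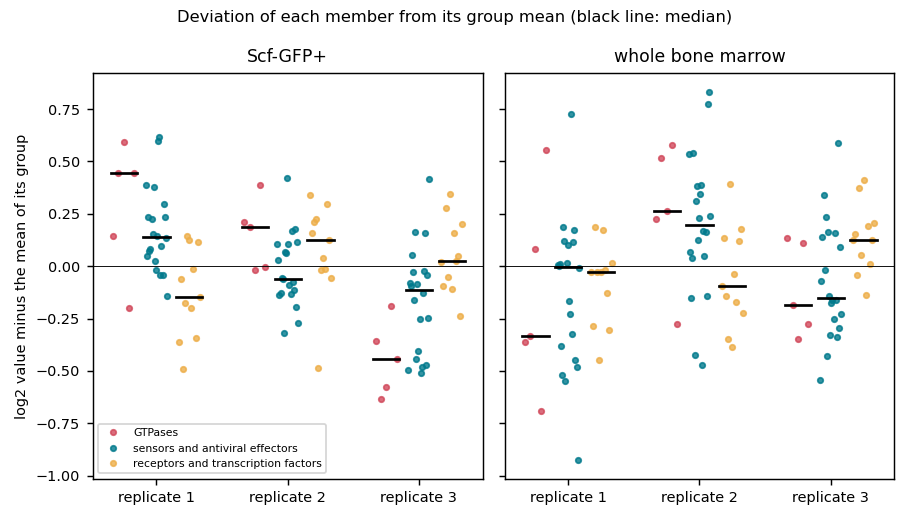
Deviation of each member's log2 value from the mean of its group (y axis) in the 3 Scf-GFP+ arrays (left) and the 3 whole bone marrow arrays (right), for GTPases (red), sensors and antiviral effectors (teal) and receptors and transcription factors (yellow), with black lines at medians. GTPase medians are 0.45 and -0.45 in Scf-GFP+ replicates 1 and 3, and antiviral members sit highest in whole marrow replicate 2, with a median of 0.20.

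The rest of the interferon pathway was read from lists that hold no member. Of 16 measured interferon genes, none was called. At an unadjusted p below 0.05 limma gave 0 higher and 1 lower, where 18.1% and 19.6% of all genes were. That gene was Ifng, interferon gamma, which measured 5.80, 5.85 and 5.78 in Scf-GFP+ cells, against 6.73, 6.23 and 7.11 in whole marrow (-0.88 ± 0.22 SE, limma adjusted p = 0.0253). It was chosen after its value was seen. Of these 16 genes, 7 lay below the first quartile in every Scf-GFP+ array. Of 14 measured genes of receptors and the signal chain, 2 were called higher and 2 lower (14.3% each, against 9.01% and 7.89% of all genes). Beside Il10rb the higher gene was Socs3, an inhibitor of cytokine signalling, which measured 9.02, 8.60 and 9.49 in Scf-GFP+ cells, against 7.02, 7.31 and 7.01 in whole marrow (1.93 ± 0.23, limma adjusted p = 0.00117). On its row with the lowest mean, Socs3 differed by 0.56 and did not pass. Socs1, the inhibitor most tied to interferon gamma, differed by -0.32 ± 0.13, and the kinases Jak1, Jak2 and Tyk2 by 0.66 ± 0.17, 0.32 ± 0.17 and 0.09 ± 0.19, none at 2-fold. Irf4 and Irf8, factors of lymphoid and myeloid cells, were the genes called lower, with differences of -4.09 ± 0.19 and -2.64 ± 0.22 (limma adjusted p = 1.82e-05 and 0.000214).

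Of 12 further sensors and adaptors, 4 were called higher and 1 lower (33.3% and 8.33%, against 9.01% and 7.89% of all genes). Tlr3, the receptor for double-stranded RNA in endosomes, was higher by 2.06 ± 0.28 SE (limma adjusted p = 0.00210), and Sting1, the adaptor of DNA sensing, by 1.32 ± 0.27 (limma adjusted p = 0.0124). Aim2, an inflammasome sensor of DNA, measured 6.19, 6.03 and 5.81 in Scf-GFP+ cells, against 10.33, 10.17 and 10.27 in whole marrow (-4.24 ± 0.13, limma adjusted p = 3.99e-06). Zbp1 and Ddx60 were the other genes called higher, at 1.09 and 1.55. With the term for sex-linked transcripts Sting1 (1.05) and Ddx60 (0.80) lost their calls. Zbp1 fell to 0.95 without whole marrow replicate 3, and Ddx60 lost its call without Scf-GFP+ replicate 1 or 2 (1.30 and 1.42), and when whole marrow replicate 1 or 3 was left out (1.43 and 1.37). Of 40 further interferon-stimulated genes, 7 were higher (17.5%) and 6 lower (15%) by the same rule, and their median was 0.09. The largest among those higher were Slfn5 at 2.96 ± 0.48 (2.85 and no longer called with the term for sex-linked transcripts), Lgals3bp at 2.69 ± 0.18, Phf11d at 2.50 ± 0.15 and Parp12 at 1.78 ± 0.17. Among those lower, Slfn2 differed by -3.68 ± 0.32, Ifi27l2a by -3.42 ± 0.19, Ube2l6, an enzyme that conjugates Isg15, by -1.94 ± 0.26, and Apobec3, a cytidine deaminase that restricts retroviruses, by -1.53 ± 0.12. Apobec3 has another row whose difference was 0.90, in the opposite direction. For these 8 genes limma's adjusted p ranged from 3.17e-05 to 0.00474.

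**Figure D5:**
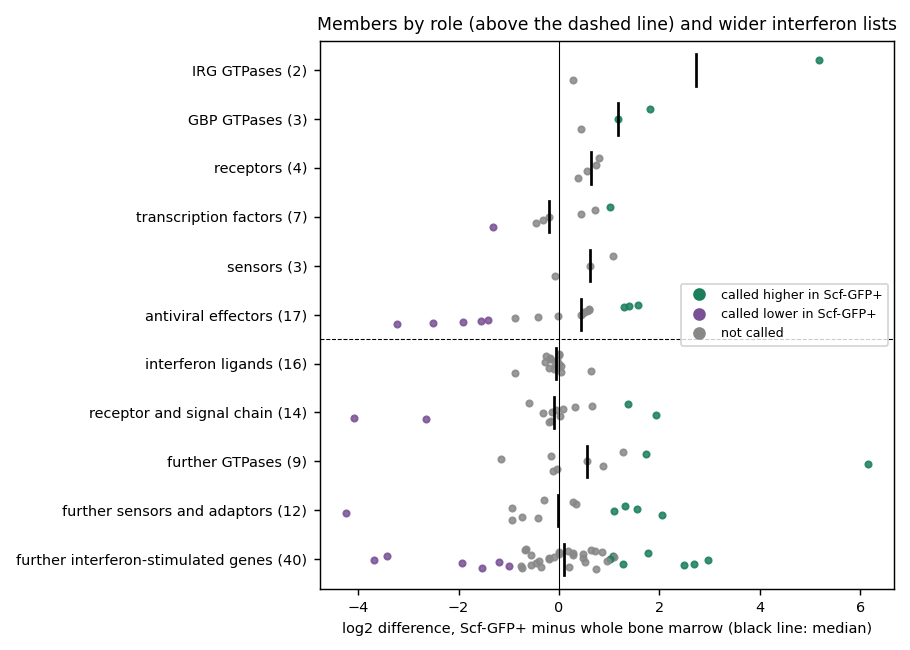
Log2 difference (x axis, Scf-GFP+ minus whole bone marrow) of each measured gene in the roles of the members (above the dashed line) and in the wider lists (below it), with the number of genes in brackets and black lines at medians. Interferon genes lie between -0.88 and 0.64, and the single point at 6.16 among further GTPases is Gm4951.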

How the data were processed

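The authors deposited 1 table of log2 values per transcript cluster for 6 arrays (28940 rows), and RMA, affy and limma are named for it, without versions or roles, per the submitters' processing notes. RMA corrects background, equalises the arrays' distributions and summarises probes. The values were used as deposited. Rows with exactly 1 symbol in the platform annotation (21789, against 1621 with several and 5530 with none) were used, with symbols updated through Entrez identifiers of RefSeq GRCm38.p6 (91 not found there were kept as listed). For 999 genes with several rows the row with the highest mean stood for the gene.

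Groups were compared with limma 3.58.1 in R 4.3.3 (lmFit and eBayes, no covariate) with Benjamini-Hochberg adjustment over 19938 genes. Each difference subtracts the whole bone marrow mean from the Scf-GFP+ mean, with limma's moderated standard error (SE), and ± in the text is this SE. Calling needed an adjusted p below 0.05 and 2-fold. The fit was tested on simulated data. The labels do not say that the numbers pair arrays, so no pairing was modelled in the main fit. Same-numbered arrays deviated with correlations of -0.06, -0.02 and 0.07, which cannot show whether they were handled together. Genes were taken as neighbours in RefSeq order with at most 3 other protein-coding genes between them. Alternatives were other normalizations, filters, rows, spread estimates and call rules, a replicate block, a term for sex-linked transcripts and each array left out. The members and lists were chosen with earlier results of these data known. All members were described by role, with values in every array for Iigp1 and called members. From the wider lists up to 4 called genes per direction were named by size, plus Jak1, Jak2, Tyk2, Socs1 and Socs3. Signal over background is not given by RMA values, so its part in the precision is not known. The number of arrays limits precision, and the Scf-GFP+ arrays also differed among themselves in sex-linked transcripts and neutrophil markers.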

Additional observations from a re-analysis of the deposited data

How the results depend on the processing

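Over 16 alternatives to the settings of the report, the 36 members gave 524 values on the same side of the threshold in the same direction, 32 that lost a call, 12 that gained one and 8 with the opposite sign. A replicate block changed no count by over 1.5 times (7 members higher, 6 lower and 4 sensors and antiviral effectors higher, with Irf1 losing and Ifih1 gaining a call). Leaving out single arrays gave 5 to 8 members higher and 6 lower. With limma's treat at 2-fold, 1 member (Iigp1) was called higher and 1 (Isg20) lower, so that 1 GTPase was higher and 0 sensors and antiviral effectors were higher and 1 lower (1 higher and 4 lower at an unadjusted p below 0.05). Treat asks that the difference exceed 2-fold beyond its error, a stricter question. Without a fold threshold, 12 members and 5 sensors and antiviral effectors were higher, where 13.8% of all genes were. In the other direction 7 members and 6 sensors and antiviral effectors were lower, where 13.2% of all genes were. With the term for sex-linked transcripts, 2 members, 1 GTPase and 1 sensor or effector were higher, and 5 members and 4 sensors and antiviral effectors were lower. Gbp3 (1.24), Gbp7 (0.98), Irf1 (1.35), Ifit1 (1.36), Bst2 (1.14) and Oas2 (-1.95), and of the wider lists Sting1 (1.05), Ddx60 (0.80) and Slfn5 (2.85), then lost their calls, and the cause was not tested. Signs turned with that term for Irgm1 (-0.35), Gbp4 (-0.02), Rnf213 (-0.07) and Tyk2 (-0.10), and on the lowest-mean row for Apobec3 (0.90). Leaving out single arrays moved Dhx58 from -0.18 to 0.00, Mx2 from -0.33 to 0.34 and Tyk2 from -0.05 to 0.24. None of these was called except Apobec3.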
